A study of Homo sapiens with 6 samples.

Results

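The clustered protocadherins were examined in human embryonic stem cells of the Royan H6 (RH6) and Royan H5 (RH5) lines, in the naive and in the primed state. They were taken from the gene count table by name, as the protein-coding rows with the symbol of an alpha, beta or gamma clustered protocadherin. Of 22810 protein-coding rows, 82 matched, of which 52 held at least 1 count: 15 alpha, 16 beta and 21 gamma genes. The other 30 rows were at 0 in every library and carried symbols that a counted row also had. The clearest pattern was in the beta genes, which in naive RH5 summed to 43.6 and 42.6 CPM (counts scaled to a common library size) against 75.2 in primed RH5, and in naive RH6 to 97.9 and 95.5 CPM against 95.1 in primed RH6. The sums were not tested, and each primed value is that of 1 library. Of 8 beta genes called lower in naive RH5, only PCDHB15 was also called by DESeq2. PCDHB15 was lower in naive than in primed cells of both lines. PCDHGC3 was called higher in naive cells of both lines, but in RH6 that call was lost without 1 naive library and by DESeq2.

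Clustered protocadherins are adhesion proteins of the cadherin superfamily, encoded by the alpha, beta and gamma arrays that lie next to each other on chromosome 5. Each variable exon has its own promoter. In the alpha and gamma arrays a variable exon is spliced to constant exons that the array's genes share, whereas each beta gene is a single exon. The proteins are best known in neurons, where each cell transcribes its own small choice of members and the resulting surface combination lets branches of the same cell recognise and avoid each other. CTCF and cohesin hold active variable promoters in loops with enhancers, and DNA methylation keeps many of the promoters silent. The C-type members at the ends of the alpha and gamma arrays (PCDHAC1, PCDHAC2, PCDHGC3, PCDHGC4 and PCDHGC5) differ in sequence from the others and are not part of this random choice.

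The 6 libraries were 2 of naive RH6 at passage 10, 2 of naive RH5 at passage 17, 1 of primed RH6 at passage 20 and 1 of primed RH5 at passage 16. Naive cells resemble the embryo before implantation, and primed cells, the usual culture form, resemble a later stage. Naive cells were made with 2a2iL, grown on in 2iL medium and passaged with trypsin, and primed cells were grown with the growth factor bFGF. The feeder layer was inactivated mouse embryonic fibroblasts for all groups. State and medium cannot be told apart, nor can line and passage number among the naive libraries. The labels do not say that the naive duplicates came from separate cultures, so the spread behind the p-values is that of these libraries and may be technical.

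Libraries held 13457979 to 14663982 counts, of which the protocadherins took 0.0268 to 0.0327%. The chi-square per gene between duplicates was 9.22 in naive RH6 and 5.76 in naive RH5, against 19.7 to 73.1 between libraries of different groups. Over the protocadherins alone it was 1.75 and 1.32 between duplicates, and 7.88 to 21.0 between groups. The 8 pluripotency genes were expressed in all libraries, with POU5F1, a core pluripotency factor, at 310.4 to 504.5 CPM. Their summed level was 5609 to 6187 CPM in naive RH6, 4409 to 4574 in naive RH5, 6544 in primed RH6 and 6821 in primed RH5. In RH6 2 were higher and 3 lower in naive cells, and in RH5 5 were lower and none was higher (median log2 fold change -0.95). Of all tested genes, 16.4% were higher and 17.2% lower in RH6, and 16.5% were higher and 17% lower in RH5. Of 12 fibroblast markers (11 tested), 7 were higher and 1 was lower in naive than in primed cells, where 12.1% of all 19434 tested genes were higher and 13.6% lower. Their summed level was 985 to 1211 CPM in naive RH6, 600.0 to 638 in naive RH5, 335 in primed RH6 and 328 in primed RH5, with the fibroblast proteoglycan DCN at 0 to 0.598 CPM. Of 14 neural markers (12 tested), 1 was higher and 4 were lower over both lines, 2 were higher and 9 lower in RH6 (median log2 fold change -2.91), and 4 were higher and 4 lower in RH5. The state effect differed between the lines for 5 of the 12 tested, against 12% of all tested genes. Their sum was 629 to 895 CPM in naive RH6, 912 to 1185 in naive RH5, 757 in primed RH6 and 582 in primed RH5, and NES, an intermediate filament of progenitors, made up most of it. The neuronal factor NEUROD1 was at 0 in every naive library. The part of these cells in the protocadherin levels was not tested, and in bulk libraries fewer cells of a type and less RNA per cell cannot be told apart.

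The variable promoters carry short shared sequences, shown here for the members that differed most between the lines within the naive state (PCDHA6, PCDHGC3 and 3 beta genes) and for PCDHAC1, the alpha gene called between states over both lines. RefSeq promoters (GRCh38.p14, from 250 bases before to 50 bases after the start, here all on the + strand) were found for 45 of the 52 members. Capitals mark an alpha-type motif in PCDHA6, a beta-type motif in PCDHB8, PCDHB16 and PCDHB15, and a core common to the clusters in PCDHGC3. PCDHAC1 has none of these in its window.
PCDHA6, chr5:140827710-140828009: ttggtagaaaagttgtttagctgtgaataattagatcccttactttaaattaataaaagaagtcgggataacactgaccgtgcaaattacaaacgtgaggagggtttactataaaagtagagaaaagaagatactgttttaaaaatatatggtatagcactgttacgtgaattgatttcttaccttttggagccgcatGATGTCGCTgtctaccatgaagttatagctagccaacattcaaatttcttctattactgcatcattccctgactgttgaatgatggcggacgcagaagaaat
PCDHAC1, chr5:140926049-140926348: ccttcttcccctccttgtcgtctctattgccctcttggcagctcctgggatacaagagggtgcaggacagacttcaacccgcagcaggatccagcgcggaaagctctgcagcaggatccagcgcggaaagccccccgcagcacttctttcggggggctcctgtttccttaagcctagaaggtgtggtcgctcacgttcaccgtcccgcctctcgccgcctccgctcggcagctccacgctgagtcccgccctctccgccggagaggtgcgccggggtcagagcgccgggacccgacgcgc
PCDHB8, chr5:141177540-141177839: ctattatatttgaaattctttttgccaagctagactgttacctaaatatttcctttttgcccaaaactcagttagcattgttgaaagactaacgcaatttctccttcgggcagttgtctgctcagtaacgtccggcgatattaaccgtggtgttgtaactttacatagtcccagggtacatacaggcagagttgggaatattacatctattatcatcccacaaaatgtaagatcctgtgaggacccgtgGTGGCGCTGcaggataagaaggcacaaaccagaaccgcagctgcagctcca
PCDHB16, chr5:141182137-141182436: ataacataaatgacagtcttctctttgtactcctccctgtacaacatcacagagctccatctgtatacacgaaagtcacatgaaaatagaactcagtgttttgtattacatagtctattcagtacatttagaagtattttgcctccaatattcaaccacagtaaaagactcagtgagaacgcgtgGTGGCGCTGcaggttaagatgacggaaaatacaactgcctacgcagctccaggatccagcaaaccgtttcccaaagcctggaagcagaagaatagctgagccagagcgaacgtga
PCDHB15, chr5:141245145-141245444: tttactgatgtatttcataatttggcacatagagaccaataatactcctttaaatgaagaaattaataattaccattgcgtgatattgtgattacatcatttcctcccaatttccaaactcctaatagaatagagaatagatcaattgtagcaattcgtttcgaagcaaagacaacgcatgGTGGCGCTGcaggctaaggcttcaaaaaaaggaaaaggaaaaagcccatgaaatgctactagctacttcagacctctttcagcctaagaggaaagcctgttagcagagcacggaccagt
PCDHGC3, chr5:141475716-141476015: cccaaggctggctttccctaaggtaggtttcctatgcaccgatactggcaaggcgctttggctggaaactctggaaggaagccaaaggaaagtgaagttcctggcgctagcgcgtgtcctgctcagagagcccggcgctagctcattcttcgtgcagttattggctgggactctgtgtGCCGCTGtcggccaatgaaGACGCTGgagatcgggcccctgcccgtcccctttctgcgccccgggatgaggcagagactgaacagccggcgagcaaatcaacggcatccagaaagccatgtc

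The motifs were chosen after these promoters had been read, so their counts are a description, and both strands were searched. The alpha-type letters GATGTCGCT stood in 9 of 13 alpha promoters and in no beta or gamma promoter, and in 0.105% of the 35116 RefSeq promoters of the same length. The beta-type letters GTGGCGCTG stood in 11 of 13 beta promoters, in no alpha or gamma promoter, and in 0.572% of all promoters. The gamma-type letters GCGCCGCTG stood in a promoter of 9 of 19 gamma genes, in no alpha or beta promoter, and in 1.28% of all promoters. The core GNCGCTG, which overlaps the beta-type and gamma-type letters and can overlap the alpha-type letters, was in 34 of 45 members and in 25.3% of all promoters. The median distance to the start was -53 bases for the alpha type, -64 for the beta type and -68 for the gamma type. A second RefSeq start was found for 4 of the 45 members, all gamma genes, and each start with a match entered the median.

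PCDHB8 and PCDHB16 are neighbours in the array and both hold the beta-type letters, but these lie at -1 base from the RefSeq start in PCDHB8 and at -65 in PCDHB16. PCDHB15 holds the same letters at -69. In RH6 it was lower in naive cells where PCDHB8 and PCDHB16 were higher, while in RH5 all 3 had negative log2 fold changes, and all 3 were higher in naive RH6 than in naive RH5. C-type promoters held 15 to 27 CpG dinucleotides (median 23), against 2 to 25 (median 7) in the other members, so the ranges overlapped. The median over all RefSeq promoters was 14. Both starts of PCDHGC4 were counted, and no promoter was found for PCDHGC5. The TATA letters TATAAA stood in 6 of the 45 members and in 11.5% of all promoters.

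**Figure D1:**
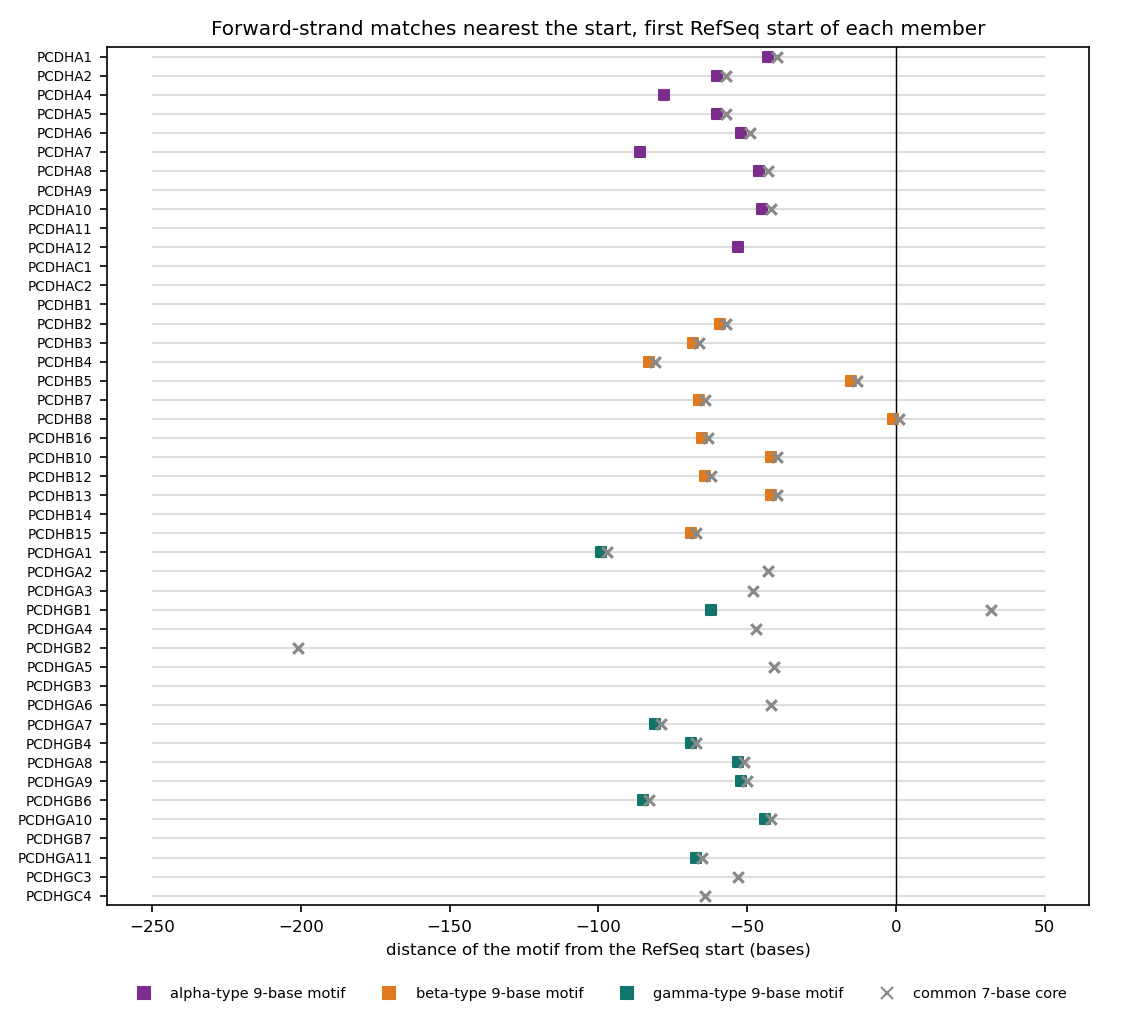
Distance in bases from the RefSeq start to the nearest match on the forward strand of each motif, for the first start of the 45 matched members, listed in genome order within each cluster. Coloured squares are the alpha-type, beta-type and gamma-type letters and crosses are the common core, with most matches upstream of the start.

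Cluster sums showed which part of the locus differed between groups. Alpha genes summed to 72.6 and 82.3 CPM in naive RH6, 57.1 and 67.2 in naive RH5, 65.6 in primed RH6 and 67.7 in primed RH5. In RH6 the primed value lay below both naive ones (naive mean 1.18 times primed), and in RH5 it lay above both (0.918 times). Beta genes summed to 97.9 and 95.5 CPM in naive RH6, 43.6 and 42.6 in naive RH5, 95.1 in primed RH6 and 75.2 in primed RH5. The low beta sum was that of the naive RH5 libraries, 0.573 times that of primed RH5, and the mean of naive RH6 was 2.24 times that of naive RH5. Gamma genes summed to 158 and 162 CPM in naive RH6, 180 and 183 in naive RH5, 149 in primed RH6 and 119 in primed RH5. Here naive RH5 was the highest group, at 1.53 times primed RH5. In RH6 the naive mean was 1.02 times primed for beta and 1.08 times for gamma, and without TMM scaling the beta order turned, to 95.2 and 91.9 CPM in naive RH6 against 97.6 in primed RH6.

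**Figure D2:**
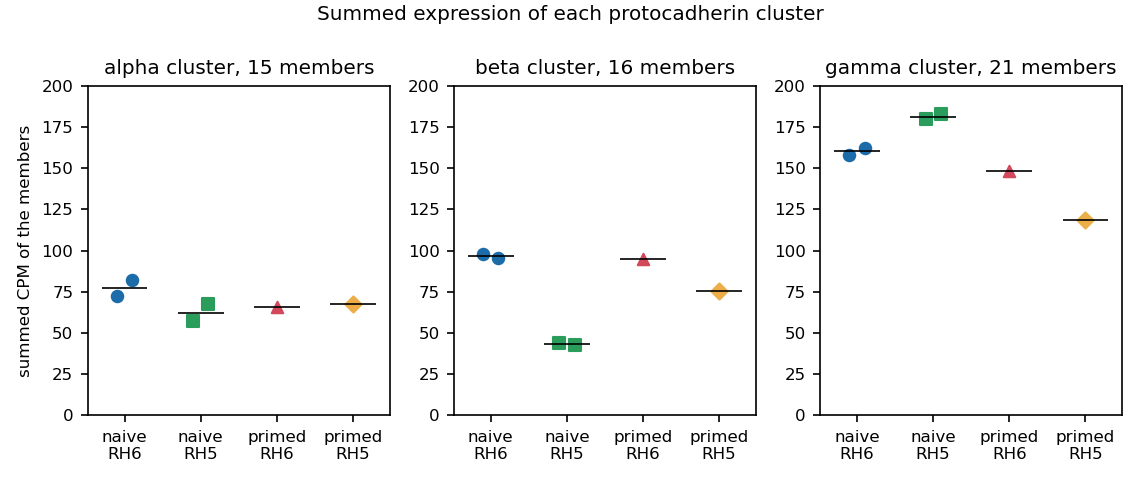
Summed CPM (TMM-scaled) of the alpha, beta and gamma members in each library, with a point per library and a bar at the group mean. Beta sums are lowest in the naive RH5 libraries (43.6 and 42.6 CPM) and gamma sums are highest there (180 and 183 CPM).

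The make-up of the protocadherin counts moved in the same way. Beta genes took 29.8% (95% exact binomial interval 28.5 to 31.1) and 28.1% (26.8 to 29.4) of all protocadherin counts in naive RH6, 30.8% (29.4 to 32.1) in primed RH6 and 28.7% (27.3 to 30.3) in primed RH5. In naive RH5 they took 15.5% (14.4 to 16.7) and 14.6% (13.5 to 15.7). C-type genes took 17.2% of the gamma counts in each naive RH5 library, 10.6% and 8.16% in naive RH6, 7.45% in primed RH6 and 10.1% in primed RH5. PCDHGC3 held 327 and 318 of the 438 and 421 C-type gamma counts in naive RH5. PCDHGC4 had 94 and 89 counts there, against 118 and 97 in naive RH6, so the higher share was that of PCDHGC3. The naive RH5 intervals of the C-type share, 15.7 to 18.7% and 15.7 to 18.8%, did not overlap those of any other library. Such intervals cover counting error only, and no p is given for sums and shares because the genes were chosen with results known.

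Most members were detected everywhere: 50 to 52 had at least 1 count in a library, and 43 to 47 had at least 10. Levels were also taken per kilobase of exon that a gene shares with no other gene on its strand. By this measure the mean over the 6 libraries was highest for the gamma genes PCDHGA10 (13.2 CPM per kb) and PCDHGB7 (7.68), then the beta gene PCDHB2 (6.27). PCDHGA10 was first in each of the 4 groups, but the order below it turned between groups. In naive RH5 PCDHGB4 (7.49) and PCDHGC3 (7.21) followed PCDHGB7 (7.85), whereas in naive RH6 PCDHB2 (7.56) and the alpha gene PCDHA11 (6.04) did, after PCDHGB7 at 8.59. In primed RH5 PCDHB2 (6.25) stood above PCDHGB7 (5.36). PCDHGA10 alone took 32.4 to 40.7% of the gamma counts, and PCDHB2 took 31.4 to 44.7% of the beta counts. The top alpha gene by counts was PCDHA11 in the RH6 libraries of both states and PCDHAC1 in those of naive RH5, while in primed RH5 PCDHAC1 and PCDHA10 had 140 and 139 counts. The lowest levels per kb were those of the beta genes PCDHB6 (0.0181), PCDHB1 (0.0249) and PCDHB17 (0.0495), the last a transcribed pseudogene in GENCODE v29. These 3 had 5, 17 and 13 counts over all libraries and, with PCDHGA3 at 56 counts, did not pass the filter on low counts, which left 48 tested members (15 alpha, 13 beta and 20 gamma).

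**Figure D3:**
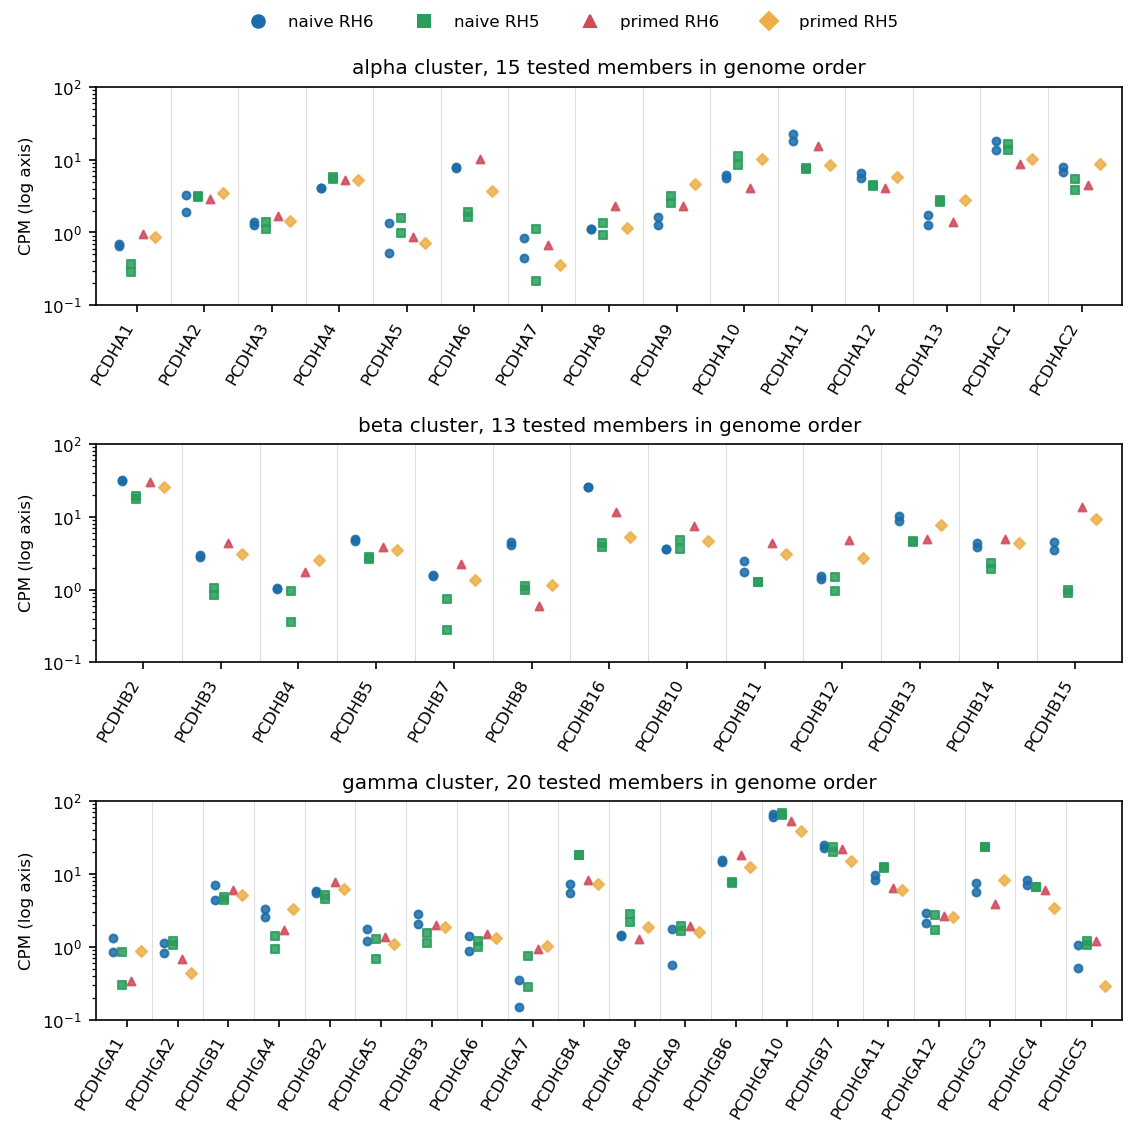
CPM on a log axis of the 48 tested members in each library, in genome order within each cluster, with a point per library. PCDHB15 and PCDHB16 show wide gaps between groups in the beta cluster, and PCDHGC3 and PCDHGB4 are high in both naive RH5 libraries.

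Over both lines, 4 of the 48 tested members were higher and 4 were lower in naive than in primed cells by edgeR's quasi-likelihood test with Benjamini-Hochberg adjustment over 19434 genes. That is 16.7% of the members, against 25.7% of all tested genes. 1 alpha gene was higher and none was lower, 4 beta genes were lower and none was higher, and 3 gamma genes were higher and none was lower. At an unadjusted p under 0.05 in either direction there were 3 alpha, 6 beta and 6 gamma genes, and DESeq2 called 4 members higher and 3 lower. The combined calls depended on single libraries: without any 1 of the naive libraries 1 member was higher and 1 to 3 were lower (15.6 to 17.6% of all genes were called). Without primed RH6, which leaves the state effect of RH5, 6 were higher and 11 lower (32% of all genes), and without primed RH5 5 were higher and 4 lower (32.3%). The median log2 fold change was -0.15 for alpha, -0.64 for beta and 0.15 for gamma genes, against -0.01 for all genes. In RH6 alone 5 members were higher and 4 lower (of all tested genes 33.6% were called, 16.4% higher and 17.2% lower), and in RH5 alone 6 were higher and 12 lower (of all genes 33.5%, 16.5% higher and 17% lower). These within-line tests took their spread from the naive duplicates and assumed that the lone primed library varies like them. With DESeq2 the within-line counts were smaller, at 2 higher and 1 lower in RH6 (20.6% of all genes called) and 4 higher and 1 lower in RH5 (20.1%). The 2 lines share no library, but each line's result is part of the combined one.

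Among alpha genes, the C-type member PCDHAC1 was called over both lines. Its level was 13.5 and 18.0 CPM in naive RH6, 13.4 and 16.4 in naive RH5, 8.79 in primed RH6 and 10.1 in primed RH5. All 4 naive libraries were above both primed ones, and the log2 fold change was 0.70 ± 0.20 (SE, 4 naive and 2 primed libraries, adjusted p = 0.0398). Within RH6 alone it reached 0.84 ± 0.23 (adjusted p = 0.0188), and within RH5 alone 0.56 ± 0.23 (adjusted p = 0.0898). The call over both lines held in 5 of 11 alternatives, with adjusted p from 0.0144 to 0.198. It was lost without any 1 naive library or without primed RH6, and the RH6 call was lost without the second naive RH6 library and by DESeq2. The other C-type alpha gene, PCDHAC2, was at 6.87 and 7.95 CPM in naive RH6 against 4.56 in primed RH6, and at 3.82 and 5.45 in naive RH5 against 8.84 in primed RH5. Its naive libraries thus lay above the primed one in RH6 and below it in RH5, where it was called lower at -0.93 ± 0.26 (adjusted p = 0.0210). That RH5 call was lost without the first naive RH5 library and by DESeq2.

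PCDHA6 was higher in RH6 than in RH5 in both states. It was at 7.78 and 7.87 CPM in naive RH6, 1.91 and 1.64 in naive RH5, 10.2 in primed RH6 and 3.69 in primed RH5. Both primed libraries lay above the naive ones of their line. The difference passed the test in RH5 (-1.05 ± 0.30, adjusted p = 0.0209) but not in RH6 (-0.38 ± 0.22, adjusted p = 0.219). With the lines combined the state difference did not pass either (-0.68 ± 0.23, adjusted p = 0.0699). The RH5 call was lost without the second naive RH5 library and by DESeq2. PCDHA11 was at 17.8 and 22.8 CPM in naive RH6, 7.57 and 7.69 in naive RH5, 15.6 in primed RH6 and 8.47 in primed RH5. Its level was high in RH6 and low in RH5 in both states, and the log2 fold change between states was 0.12 ± 0.19 (adjusted p = 0.690). PCDHA10 had the opposite order of lines, at 5.54 and 6.18 CPM in naive RH6, 8.42 and 11.2 in naive RH5, 4.09 in primed RH6 and 10.1 in primed RH5. The other 10 alpha genes were called in none of the 3 state comparisons.

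Among beta genes, PCDHB15 had the largest difference between states over both lines and in RH5. It was at 4.56 and 3.53 CPM in naive RH6, 0.990 and 0.896 in naive RH5, 13.6 in primed RH6 and 9.27 in primed RH5. Every naive library was below both primed ones, and the log2 fold change over both lines was -2.46 ± 0.35 (adjusted p = 0.00321). Within RH6 it was -1.75 ± 0.24 (adjusted p = 0.00031), and within RH5 it reached -3.28 ± 0.30 (adjusted p = 2.38e-05). Both within-line calls held under DESeq2 and without any 1 library that left the contrast estimable.

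PCDHB12 and PCDHB11 were lower in naive cells of both lines. PCDHB12 was at 1.54 and 1.398 CPM in naive RH6, 1.49 and 0.971 in naive RH5, 4.83 in primed RH6 and 2.75 in primed RH5, without overlap between states, and its log2 fold change was -1.45 ± 0.30 (adjusted p = 0.0129). PCDHB11 was at 2.45 and 1.77 CPM in naive RH6, 1.27 in both naive RH5 libraries, 4.43 in primed RH6 and 3.11 in primed RH5. Its states did not overlap either, at -1.17 ± 0.27 (adjusted p = 0.0191). PCDHB3 was at 2.80 and 3.02 CPM in naive RH6, 0.849 and 1.05 in naive RH5, 4.36 in primed RH6 and 3.04 in primed RH5. It was called over both lines (-1.09 ± 0.32, adjusted p = 0.0470) and in RH5 (-1.68 ± 0.38, adjusted p = 0.00708). It was called neither in RH6 (-0.58 ± 0.31, adjusted p = 0.186) nor over both lines by DESeq2. Over 11 alternatives PCDHB15 was called over both lines in 10, PCDHB12 in 8, PCDHB11 in 6 and PCDHB3 in 3. Beta genes are similar to each other, and how reads with several matches were counted is not known here, so the split of counts between them is uncertain.

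In RH5 all 13 tested beta genes had a negative log2 fold change, with a median of -1.04 against 0.00 for all genes, and 8 of them passed the test. PCDHB4 was at 0.354 and 0.971 CPM in naive RH5 against 2.54 in primed RH5 (-1.94 ± 0.53, adjusted p = 0.0177), and at 1.05 and 1.03 in naive RH6 against 1.74 in primed RH6. The RH5 value rested on few counts: it was -1.37 without the first naive RH5 library (adjusted p = 0.0719) and -2.80 without the second, and DESeq2 did not call it (adjusted p = 0.176). PCDHB2, the most abundant beta gene, was at 19.5 and 17.5 CPM in naive RH5 and 25.8 in primed RH5 (-0.48 ± 0.15, adjusted p = 0.0299), whereas the naive RH6 libraries at 30.7 and 31.6 lay near the 30.0 of primed RH6. By DESeq2 PCDHB2, PCDHB3, PCDHB4, PCDHB11, PCDHB12, PCDHB13 and PCDHB14 were not called in RH5, and PCDHB15 was. Of all tested genes, edgeR called 33.5% in RH5 and DESeq2 20.1%. The remaining beta genes called by edgeR in RH5 were PCDHB14 and those named above or below. Without the first naive RH5 library the beta genes PCDHB4, PCDHB11 and PCDHB13 were no longer called, and without the second PCDHB2, PCDHB11, PCDHB12, PCDHB13 and PCDHB14 were not. Leaving out either naive RH5 library left 7 members of all clusters called lower in RH5, in place of 12 (31.1% of all genes were called without the first and 29.6% without the second).

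In RH6 beta genes differed in both directions, with 3 called higher and 4 called lower of 13. PCDHB8 was at 4.07 and 4.49 CPM in naive RH6 and 0.604 in primed RH6, and at 0.990 and 1.12 in naive RH5 and 1.16 in primed RH5. The naive RH6 libraries stood apart from the other 4, and the log2 fold change in RH6 was 2.81 ± 0.44 (adjusted p = 0.000799), on 9 counts in the primed library. Its neighbour PCDHB16 was at 25.4 and 25.7 CPM in naive RH6, 11.7 in primed RH6, 4.39 and 3.81 in naive RH5 and 5.36 in primed RH5. Here too naive RH6 was the highest group, at 1.12 ± 0.18 above primed RH6 on the log2 scale (adjusted p = 0.000805). PCDHB13 was at 10.3 and 8.68 CPM in naive RH6 against 4.90 in primed RH6, and at 4.46 and 4.71 in naive RH5 against 7.61 in primed RH5. It was called higher in RH6 (0.95 ± 0.24, adjusted p = 0.0117) and lower in RH5 (-0.73 ± 0.24, adjusted p = 0.0377), and neither call held under DESeq2. The genes called lower in RH6 were PCDHB15, PCDHB12, PCDHB11 and PCDHB10, of which PCDHB11 was lost without the second naive RH6 library. By DESeq2 PCDHB12, PCDHB11 and PCDHB10 were not called in RH6, while PCDHB15, PCDHB8 and PCDHB16 were. Of all tested genes, edgeR called 33.6% in RH6 and DESeq2 20.6%.

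**Figure D4:**
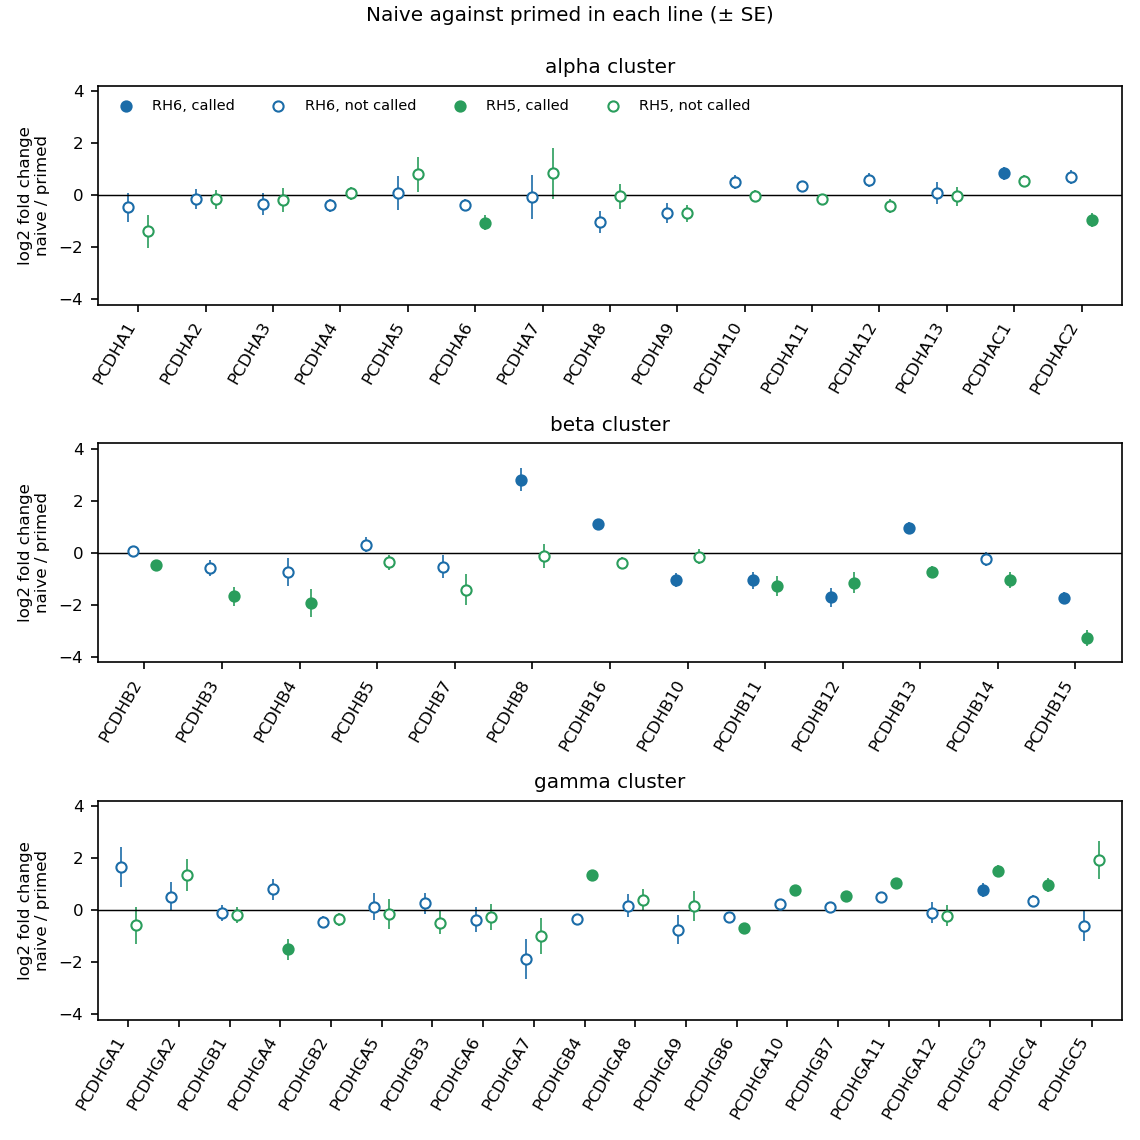
Log2 fold change of naive against primed cells with its SE for the 48 tested members in RH6 (blue) and RH5 (green), in genome order within each cluster, with filled points for adjusted p under 0.05. All 13 beta genes are below 0 in RH5, while PCDHB8, PCDHB16 and PCDHB13 are called above 0 in RH6.

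Among gamma genes, the C-type member PCDHGC3 was called higher in naive cells of both lines. It was at 7.50 and 5.59 CPM in naive RH6 against 3.82 in primed RH6, and at 23.1 and 23.8 in naive RH5 against 8.26 in primed RH5. The primed RH5 library lay above the naive RH6 ones, so states did not overlap within a line but did across lines. The log2 fold change over both lines was 1.16 ± 0.23 (adjusted p = 0.0124). The value was 0.78 ± 0.25 within RH6 (adjusted p = 0.0374) and 1.50 ± 0.21 within RH5 (adjusted p = 0.000419). The RH6 call was lost without the first naive RH6 library (0.54, adjusted p = 0.146) and by DESeq2 (adjusted p = 0.146). The neighbouring PCDHGC4 was at 8.27 and 7.14 CPM in naive RH6, 6.65 in both naive RH5 libraries, 6.04 in primed RH6 and 3.40 in primed RH5, and was called in RH5 (0.96 ± 0.26, adjusted p = 0.0171). By DESeq2 PCDHGC4 was not called in RH5. PCDHGC5 was at 0.290 to 1.21 CPM and was not called in any of the 5 comparisons.

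PCDHGA10, the most abundant clustered protocadherin per kb, was at 60.7 and 66.2 CPM in naive RH6, 67.8 and 65.2 in naive RH5, 53.9 in primed RH6 and 38.5 in primed RH5. All naive libraries lay above both primed ones, and the log2 fold change was 0.50 ± 0.15 (adjusted p = 0.0467). It was 0.79 ± 0.13 in RH5 (adjusted p = 0.00107) and 0.24 ± 0.12 in RH6 (adjusted p = 0.178). PCDHGA11 showed the same order, at 9.67 and 8.39 CPM in naive RH6, 12.6 and 12.0 in naive RH5, 6.37 in primed RH6 and 6.01 in primed RH5 (0.76 ± 0.20, adjusted p = 0.0311). PCDHGB7, which lies between them, was at 25.0 and 22.8 CPM in naive RH6, 19.9 and 23.8 in naive RH5, 21.9 in primed RH6 and 14.9 in primed RH5, and was called in RH5 (0.55 ± 0.17, adjusted p = 0.0349), though not without the second naive RH5 library. By DESeq2 PCDHGB7 was not called in RH5. Over 11 alternatives the calls over both lines held in 9 for PCDHGC3 and in 4 each for PCDHGA10 and PCDHGA11.

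Other gamma genes differed from this order. PCDHGB4 was at 18.4 CPM in both naive RH5 libraries, against 7.24 in primed RH5, 8.18 in primed RH6 and 5.54 and 7.29 in naive RH6. The naive RH5 libraries stood apart from the other 4, and the log2 fold change in RH5 was 1.35 ± 0.22 (adjusted p = 0.00098). PCDHGB6 had the reverse pattern, at 7.50 and 7.77 CPM in naive RH5, 12.4 in primed RH5, 18.3 in primed RH6 and 15.6 and 14.7 in naive RH6 (-0.70 ± 0.18 in RH5, adjusted p = 0.0138). PCDHGA4 was at 0.920 and 1.42 CPM in naive RH5 against 3.33 in primed RH5 (-1.51 ± 0.40, adjusted p = 0.0159), and at 2.59 and 3.31 in naive RH6 against 1.68 in primed RH6. Its RH5 call was lost without the first naive RH5 library. By DESeq2 PCDHGB6 and PCDHGA4 were not called in RH5, while PCDHGB4 was. Of the 20 tested gamma genes, 12 were not called in RH5 and 19 were not called in RH6. The share called was 40% in RH5, against 33.5% of all tested genes, and 5% in RH6, against 33.6%.

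The lines were also compared within the naive state, where both have duplicates. Of the 48 members, 13 were higher in naive RH6 and 4 were higher in naive RH5, which is 35.4% of members against 25.5% of all tested genes (12% higher and 13.5% lower in naive RH6). Beta genes made up 9 of the 13, with none lower, and their median log2 fold change was 0.94 against 0.00 for all genes. PCDHB16 differed most, at 2.64 ± 0.16 (2 against 2 libraries, adjusted p = 2.85e-06), followed among beta genes by PCDHB15 at 2.09 ± 0.29 and PCDHB8 at 2.01 ± 0.31. PCDHA6 (2.13 ± 0.23) and PCDHA11 (1.41 ± 0.17) were the alpha genes higher in RH6, and PCDHGA4 (1.33 ± 0.35) and PCDHGB6 (0.99 ± 0.15) the gamma genes. Higher in naive RH5 were PCDHGC3 (-1.84 ± 0.17, adjusted p = 4.71e-05), PCDHGB4 (-1.52 ± 0.17), PCDHA9 (-0.98 ± 0.32) and PCDHA10 (-0.74 ± 0.20). Without the second naive RH5 library only 2 of these 4 were called (20.3% of all genes). DESeq2 called 11 of the 17 members and 14.7% of all genes. It did not call PCDHA9, PCDHA10, PCDHB5, PCDHB7, PCDHB14 and PCDHGA4. Of the gamma and beta genes higher in RH6, PCDHGA4, PCDHB5, PCDHB7 and PCDHB14 lost their call without at least 1 of the naive libraries. In the same comparison 7 of 11 tested fibroblast markers and 6 of 8 pluripotency genes were higher in naive RH6 and none was lower, and 1 neural marker was higher and 4 were lower of 12. The part of these cells in the line difference was not tested.

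Whether the state effect differed between the lines was tested directly. The difference passed the test for 7 members (14.6%, against 12% of all tested genes). It was positive, that is higher in RH6, for 6 (5.86% of all genes) and negative for 1 (6.16%). The largest was that of PCDHB8, at 2.94 ± 0.66 (adjusted p = 0.0173), followed by PCDHGA4 at 2.32 ± 0.57 (adjusted p = 0.0264). PCDHGB4 was the 1 negative member, at -1.70 ± 0.31 (adjusted p = 0.00606), and PCDHB13 was at 1.69 ± 0.34 (adjusted p = 0.00983). PCDHAC2, PCDHB15 and PCDHB16 were the other 3. For PCDHB15 both lines fell in the naive state and the size differed. Beta genes had 4 of the 7 calls and a median difference of 0.89, with 11 of 13 positive. By DESeq2 the test passed for 2 members, PCDHB16 and PCDHGB4 (6.52% of all genes). The naive RH5 and RH6 libraries enter both this comparison and that of the lines, so these are not separate evidence.

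Genes known to act at the protocadherin promoters were followed beside them. Of 29 regulators 28 were found and tested, and 7 were higher and 3 lower in naive than in primed cells, where 25.7% of all tested genes were called. CTCF, which binds the promoters and enhancers, was at 146 to 182 CPM and differed by 0.01 ± 0.10 on the log2 scale (adjusted p = 0.944). DNMT3L, a cofactor of the DNA methyltransferases, was at 21.4 to 26.8 CPM in naive and 0.403 and 0.579 in primed libraries (5.61 ± 0.27, adjusted p = 6.74e-05). DNMT3B, the methyltransferase known to act on these promoters, was at 252 to 353 CPM in naive and 1387 and 1364 in primed libraries (-2.20 ± 0.12, adjusted p = 0.000102). REST, a repressor of neuronal genes, was higher by 0.67 ± 0.16 (adjusted p = 0.0227), and TET3, an enzyme that oxidises methylated cytosine, was lower by a log2 fold change of -0.58 ± 0.10 (adjusted p = 0.00713). The state effect differed between the lines for 2 of the 28, against 12% of all tested genes. These were ATRX, a chromatin remodeller (-1.27 ± 0.20), and SMC1A, a cohesin subunit (-1.06 ± 0.22). Methylation and binding were not measured, so the relation of these genes to the protocadherin levels was not tested.

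Of 23 genes for partners and processing of the proteins, 4 were higher and 3 lower in naive cells, against the same 25.7% of all genes. The kinase PTK2B, which the cytoplasmic domains bind, was higher at 1.03 ± 0.24 (adjusted p = 0.0221), and NCSTN, a subunit of the gamma-secretase that cleaves the proteins, at 0.51 ± 0.10 (adjusted p = 0.0133). Lower were PRKCA (-0.67 ± 0.14) and ABI2 and CYFIP2 of the WAVE complex, which regulates actin (-0.58 ± 0.11 and -0.54 ± 0.13).

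Protocadherins outside the clusters, each with a promoter and locus of its own, had 3 lower members of 11 tested over both lines (25.7% of all genes called). In RH6 2 were higher and 7 lower (33.6% of all genes called), and in RH5 3 were higher and 4 lower (33.5%). Over both lines PCDH7 was lower by a log2 fold change of -1.24, PCDH8 by -1.17 and PCDH1 by -1.05. PCDH10 was at 191 and 195 CPM in naive RH6, 77.9 and 77.8 in naive RH5, 31.3 in primed RH6 and 55.9 in primed RH5. Of 11 genes that flank the arrays on chromosome 5, 9 were tested, of which DIAPH1, an actin regulator, was higher (0.50) and RELL2 and FCHSD1 were lower (-1.35 and -0.87). TAF7, a general transcription factor subunit between the beta and gamma arrays, was at 165 to 196 CPM and differed by 0.07 on the log2 scale (adjusted p = 0.707).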

How the data were processed

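RNA-seq of 6 human embryonic stem cell libraries was used as deposited by the authors: 1 table of whole-number read counts per gene (63677 rows), not normalized. Per the labels' protocols, RNA above small-RNA size was sequenced as paired-end reads from a stranded total RNA kit, although the molecule label reads polyA RNA. Named in the submitters' processing notes were STAR 2.4.0a, featureCounts 1.4.5-p1 (Subread), FastQC and DESeq2, with builds GRCh37.p5 and hg19. Not given in the sources used here were the annotation and the settings for strand, overlapping exons and reads with several matches, so reads of overlapping or antisense genes cannot be told apart. Alpha genes share 2866 or more bases of constant exons and gamma genes 2181 or more in GENCODE v29 (GRCh38, another build), yet the lowest members had 3 and 2 counts in a library, so the reads of the shared exons were evidently not counted for each gene.

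Counts were tested on the whole table by the quasi-likelihood F-test of edgeR 4.0.16 in R 4.3.3, with TMM factors of 0.964 to 1.029 and filterByExpr by state (minimum count 10, minimum total 15), leaving 19434 genes. P-values were two-sided and adjusted by Benjamini-Hochberg over all of them, and a gene was called under 0.05. Naive against primed used state and line (3 residual degrees of freedom, biological coefficient of variation 0.189). The other contrasts used 1 mean per group (2 residual degrees of freedom, 0.0964). SE is the size of the log2 fold change divided by the square root of F. An exact one-sided permutation test of 4 against 2 libraries cannot go below 0.0667. CPM uses TMM-scaled totals, and levels per kb use GENCODE v29 exon length not shared with any other gene on the same strand. The fits were run on simulated data with planted changes larger than many of those called here, which checks the code and not the smaller calls. Alternatives were RLE factors, DESeq2 1.42.0, no low-count filter, no line term, summed naive libraries, each library left out and a replicate block.

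Given in full were the 4 most abundant members per cluster, the C-type members and, per state comparison, cluster and direction, the 3 called members of largest log2 fold change, plus up to 4 whose state effect differed between lines. PCDHB5, PCDHB7, PCDHB10, PCDHB14 and PCDHA9, CTCF, TET3, NCSTN, PCDH10 and TAF7 were named after their values were seen. Members, lists and motifs were chosen with earlier results of these data known.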

Additional observations from a re-analysis of the deposited data

Results flagged for a closer look

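The naive-primed difference of 7 clustered protocadherins differed between the RH6 and RH5 lines by edgeR's test of the difference itself, given here as log2 in RH6 minus log2 in RH5. In the beta cluster the difference was 2.94 for PCDHB8, 1.69 for PCDHB13, 1.54 for PCDHB15 and 1.51 for PCDHB16. It was 1.63 for PCDHAC2 in the alpha cluster, and 2.32 for PCDHGA4 and -1.70 for PCDHGB4 in the gamma cluster. The adjusted p of PCDHAC2, PCDHB15 and PCDHB16 was 0.0217, 0.0344 and 0.00735. The 7 are 14.6% of the tested members, against 12% of all tested genes. By DESeq2 the difference was not called for PCDHAC2, PCDHB8, PCDHB13, PCDHB15 and PCDHGA4. Each difference rests on 1 primed library per line.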

How the results depend on the processing

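No called member changed direction under any alternative that was run. Over both lines, 4 members higher and 4 lower became 1 and 2 without the line term (18.3% of all genes called) and 0 and 0 with each line's naive duplicates summed (5.52%), from 25.7%. DESeq2 gave 2 higher and 1 lower in RH6 (from 5 and 4), 1 lower in RH5 (from 12), 1 positive difference of the state effect between lines (from 6) and 2 lower in naive RH6 than in naive RH5 (from 4). With each library left out in turn, over both lines 1 to 6 members were higher and 1 to 11 lower (11 without primed RH6). In RH5 7 to 12 were lower, with 7 without either naive RH5 library. Of all genes, DESeq2 called 20.6% in RH6, 20.1% in RH5, 6.52% for the difference between lines and 14.7% between the naive lines. The state effect of 1 to 2 members was negative in RH6 minus RH5, with 2 without either naive RH6 library, and 2 to 4 were lower in naive RH6 than in naive RH5, with 2 without the second naive RH5 library. The causes were not tested. The naive libraries numbered alike share only a number (correlation of deviations 0.196 across 19434 genes), and with the replicate block 14 members were higher and 6 lower in naive RH6, against 13 and 4 on the same libraries without it (40.6% of all genes were called with the block and 27.4% without). Low counts limit the members under 1 CPM.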

Other observations

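PCDHB9 is a pseudogene in the deposited table and so stood outside the selection by name. It had 87 and 79 counts in naive RH6, 27 and 32 in naive RH5, 84 in primed RH6 and 47 in primed RH5, and was higher in naive RH6 than in naive RH5 by 1.47 ± 0.24 (log2, edgeR adjusted p = 0.00169). The pseudogene row PCDHGB8P had 30 to 60 counts per library and was called in no comparison.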
